A study of Drosophila melanogaster with 3 samples.

Results

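The genes described here encode basement membrane and matrix proteins of Drosophila: the collagen IV chain gene vkg, the laminin chain genes LanA, LanB1 and LanB2, the perlecan gene trol, the secreted matrix protein genes Ppn and Tig, the collagen-like genes prc and Mp, and the matrix metalloproteinase gene Mmp1. They were taken by gene symbol, 10 of the 17490 genes in the count tables, and all 10 were found once in every table. All 10 also passed the filter on low values, at least 1 CPM (counts per 1000000 counts of the library) in at least 1 library, which 9056 genes passed. RNA came from the lymph gland, which makes blood cells in the larva, of animals aged 72, 96 or 120 h after egg laying (AEL, the scale of every time below). All were of the wild-type strain Oregon-R in steady state, and the labels name neither a mutant allele nor a treatment. Each time point was 1 library made from glands pooled from many larvae, so that a difference below is one between 2 libraries, has no replicate check and carries no p-value. The study describes a dissection that left the primary lobes alone, freed of heart tube (dorsal vessel), of ring gland and of the lobes behind. It does not state how complete this was for the libraries used here. Its single-cell libraries, made after the same dissection, held some cells of dorsal vessel, ring gland and neurons.

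A basement membrane is a thin sheet of secreted protein that lines tissues and anchors cells. Laminin trimers bind cell surface receptors and start the sheet, collagen IV forms a second network that gives it strength, and perlecan, a large proteoglycan whose sugar chains hold growth factors, links them. In the fly larva the fat body and the hemocytes (blood cells) both secrete these proteins, and matrix of this kind surrounds the lobes of the lymph gland.

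Library totals lay between 34278733 counts at 120 h and 49511614 at 72 h, and TMM scaling factors (trimmed mean of M-values) between 0.967 and 1.05. Levels are TMM-scaled CPM, and levels of different genes are compared only as TPM (counts per base of exon, scaled to sum to 1000000 in a library). Log2 ratios and all counts of genes past 2-fold or 4-fold are on the scale of CPM + 1, which understates low genes, while the folds printed for single genes are of scaled counts with nothing added. Intervals cover counting error only, and they are too narrow, since 69.6% to 72.0% of counts between 1 and 20 were even, which single independent reads would not give. The markers of the gland were present in each library. Tep4 and Ance of prohemocytes (progenitors) had 10240 to 12240 CPM and 5575 to 9720 CPM, and Hml of plasmatocytes (phagocytic hemocytes) 7999 to 15020 CPM. Dorsal vessel, ring gland and neuron markers were higher at 72 h: 10 dorsal vessel and muscle markers summed to 3139 CPM, against 275 and 205 CPM at 96 h and 120 h, 7 ring gland markers to 850, 307 and 133 CPM, and 5 neuron markers to 87.3, 9.76 and 8.99 CPM.

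The 10 matrix genes together differed little between the libraries, while single genes moved apart. They took 2.34% of all counts at 72 h (95% Wilson interval 2.34% to 2.35%), 2.29% at 96 h and 2.10% at 120 h. Per length the order differed: their summed TPM was 4449 at 72 h, the lowest, 5109 at 96 h and 4872 at 120 h. Their median log2 ratio was 0.11 at 96 h against 72 h, where that of all 9056 genes was -0.02, and -0.01 at 120 h against 96 h, where that of all genes was 0.00. Beneath these medians the single ratios ran from -6.60 to 0.91 in the first step (72 h to 96 h) and from -1.49 to 1.24 in the second (96 h to 120 h).

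**Figure D1:**
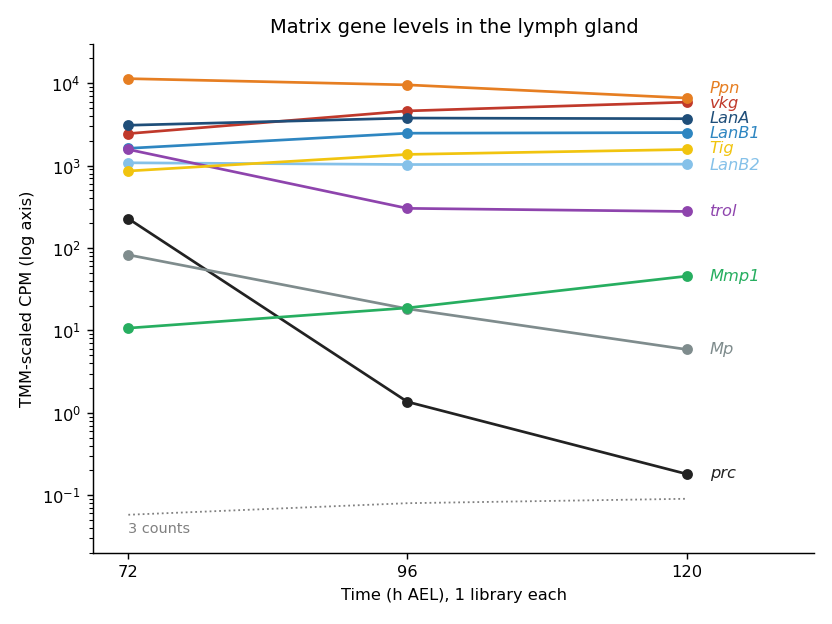
Level of each matrix gene (TMM-scaled CPM, log axis) at 72, 96 and 120 h, 1 library each, with the level of 3 counts dotted. Ppn goes from 11387 to 6629 CPM, vkg and Mmp1 climb at each time, and prc drops from 227 to 0.18 CPM.

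Genes past 4-fold, a log2 ratio of 2 or more in size, were called. At 96 against 72 h, 3 of the 10 matrix genes were called lower (prc, trol and Mp), where 8.62% of all tested genes were, and 0 were called higher, where 1.2% were. At 120 against 72 h the same 3 were called lower against a background of 9.68%, and 0 higher against 2.11%. At 120 against 96 h none was called in either direction, where 0.188% of all genes were higher and 0.0663% lower. With 2-fold, the first step again had 3 lower (background 19.5%) and 0 higher (4.76%). The second step then had Mmp1 higher (background 1.47%) and Mp lower (1.12%), with prc just short at -0.999. The whole interval from 72 h to 120 h had vkg and Mmp1 higher (7.39%) and the same 3 lower (20.7%). In the first step the 3 of 10 called lower thus lie above the 4-fold background of 8.62%. Past 2-fold the same 3 of 10 stand beside a background of 19.5%, and as a list they were not tested.

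**Figure D2:**
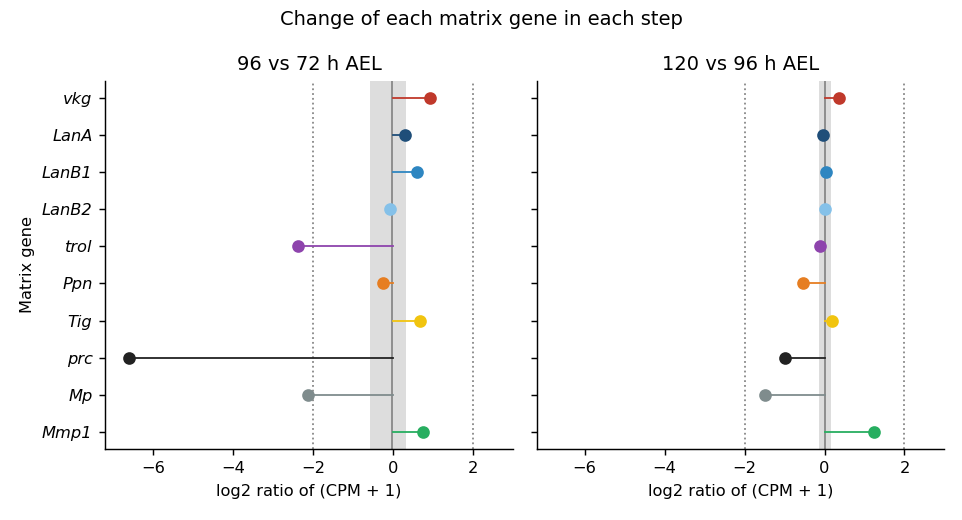
Log2 ratio of CPM + 1 of each matrix gene at 96 h against 72 h (left) and 120 against 96 h (right). Grey bands span the quartiles of all 9056 tested genes and dotted lines mark 4-fold; only prc (-6.60), trol (-2.37) and Mp (-2.11) lie past them, all in the first step.

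The gene vkg (viking, FBgn0016075) encodes a chain of collagen IV. The study names it, like NimC1, as a marker of mature plasmatocytes. It lies on chromosome 2L from 5012144 to 5028191, minus strand (BDGP6.54). Its level was 2451 CPM at 72 h, 4620 CPM at 96 h and 5901 CPM at 120 h, higher at each later time. It was 1.89-fold higher at 96 h than at 72 h (95% interval 1.87 to 1.90) and 1.28-fold higher at 120 h than at 96 h (1.27 to 1.29). Of the 9056 tested genes, 430 had a larger ratio than vkg between 72 h and 120 h. In the order of all genes by TPM, vkg stood at place 188 at 72 h and place 120 at 120 h.

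The other collagen IV chain gene, listed in the tables as Cg25C and now named Col4a1, is not one of the 10 genes but its product assembles with that of vkg. It lies beside vkg, pointing away from it on the plus strand, with 1417 bases between the annotated ends of the pair. Cg25C had 3662, 6910 and 9279 CPM at 72, 96 and 120 h, and so kept the order of vkg. Both genes were 1.89-fold higher at 96 h than at 72 h. On the TPM scale Cg25C was 1.58 times vkg at 72 h, 1.58 times at 96 h and 1.66 times at 120 h, while on the CPM scale vkg was 2.41-fold and Cg25C 2.53-fold higher at 120 h than at 72 h.

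The laminin chain genes did not share 1 pattern. A laminin molecule joins an alpha, a beta and a gamma chain, which LanA, LanB1 and LanB2 encode. LanA (FBgn0002526, chromosome 3L, 6203831 to 6218022) had 3096, 3786 and 3717 CPM at the 3 times. LanB1 (FBgn0261800, chromosome 2L, 7811438 to 7820771) had 1624, 2478 and 2522 CPM. LanB2 (FBgn0267348, chromosome 3L, 9614914 to 9623980) had 1084, 1033 and 1043 CPM. At 96 against 72 h, LanB1 was therefore 1.53-fold higher (1.51 to 1.54), LanA 1.22-fold higher (1.21 to 1.23) and LanB2 1.05-fold lower (1.04 to 1.06). From 96 to 120 h the log2 ratios of the 3 genes lay between -0.03 and 0.03, and total-count scaling turned the signs of LanB1 and LanB2.

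Per length, the chains were closer to each other at 72 h than later. LanB1 was 1.41 times LanB2 on the TPM scale at 72 h and 2.26 and 2.28 times at 96 h and 120 h. LanA was 1.45 times LanB2 at 72 h and 1.86 and 1.80 times later. The order of LanA and LanB1 changed as well, since the TPM of LanA was just above that of LanB1 at 72 h (465 and 454) and below it at 96 h (586 and 714) and 120 h (564 and 712). The gamma chain gene was the lowest of the 3 in each library. A second laminin alpha chain gene, wb, stood far below them, with a TPM of 1.19, 1.59 and 2.27 at the 3 times.

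Perlecan transcripts were lower from 96 h on. The gene trol (listed as FBgn0261451, chromosome X, 2470460 to 2545427) had 1573 CPM at 72 h, 303 CPM at 96 h and 278 CPM at 120 h. This was a 5.19-fold lower level at 96 h than at 72 h (5.09 to 5.29) and a further 1.09-fold lower level at 120 h (1.06 to 1.12). Nearly the whole difference thus lay in the first step. On the TPM scale trol was 0.202 times vkg at 72 h and 0.0207 and 0.0148 times later, and the annotation gives it 25 transcripts, so its level per length depends on which of them was present.

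Papilin, a secreted glycoprotein of basement membranes, had the highest TPM of the 10 genes at 72 h and 96 h. Its gene Ppn (FBgn0003137, chromosome 3R, 28520665 to 28540324) had 11387 CPM at 72 h, 9565 CPM at 96 h and 6629 CPM at 120 h. In the order of all genes by TPM it stood at place 102 at 72 h and place 139 at 120 h. Ppn was 1.19-fold lower at 96 h than at 72 h and 1.44-fold lower at 120 h than at 96 h (1.44 to 1.45), under the call threshold in both steps. In the second step 338 of the 9056 genes had a lower ratio. Tiggrin, a secreted ligand of integrins, went the other way: Tig (FBgn0011722, chromosome 2L, 6415179 to 6423310) had 862, 1370 and 1572 CPM, 1.59-fold higher at 96 h than at 72 h (1.57 to 1.61) and 1.15-fold higher at 120 h than at 96 h (1.13 to 1.16).

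The makeup of the group per length shifted from papilin to collagen IV. Ppn held 47.1% of the summed TPM of the 10 genes at 72 h, 35.5% at 96 h and 25.3% at 120 h. The share of vkg was 14.9%, 25.2% and 33.1%, so that vkg replaced Ppn as the highest of the 10 genes at 120 h. The laminin chain genes together with Tig made up most of the remainder. The shares of trol, prc, Mp and Mmp1 were 3.01%, 1.62%, 0.497% and 0.0872% at 72 h, and none of the 4 was above 0.52% at 96 or 120 h.

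**Figure D3:**
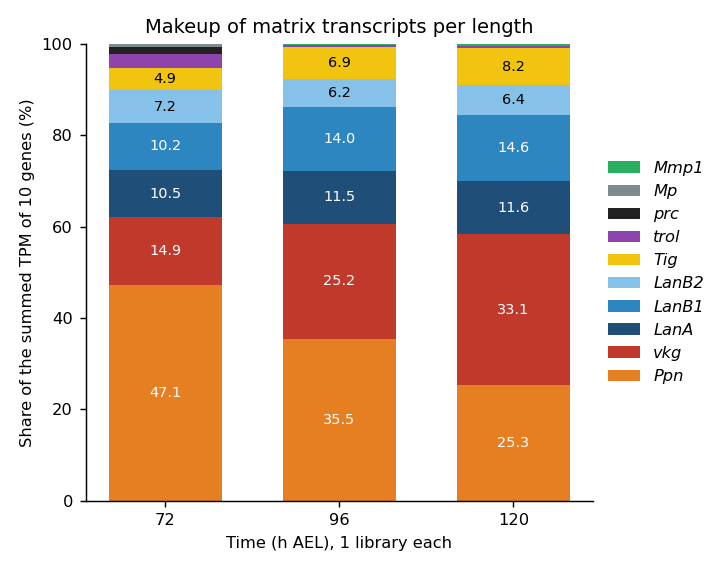
Share of each gene in the summed TPM of the 10 matrix genes (stacked bars to 100%) at 72, 96 and 120 h, 1 library each. Ppn shrinks from 47.1% to 25.3% while vkg grows from 14.9% to 33.1%.

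Among all 10 genes the widest difference was that of prc. It encodes pericardin, a collagen-like protein known from the matrix around the heart tube, and lies on chromosome 3L from 11958872 to 11966131 (FBgn0028573). It had 11773 counts at 72 h, 51 at 96 h and 6 at 120 h, or 227, 1.36 and 0.181 CPM. It was 167-fold lower at 96 h than at 72 h (127 to 225), and only 13 of the 9056 genes had a lower ratio. Between 96 and 120 h it was a further 7.51-fold lower (3.22 to 21.4), a value that rests on 51 and 6 counts. Its log2 ratio in that step was -0.999 with 1 CPM added, and -2.38, past 4-fold, with 0.1 CPM added.

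Mp had lower counts at each later time. Its product, multiplexin, is the fly relative of vertebrate collagens XV and XVIII, and the gene (FBgn0260660) lies on chromosome 3L from 6998843 to 7053499. It had 4281, 687 and 195 counts, or 82.7, 18.3 and 5.88 CPM. Mp was 4.51-fold lower at 96 h than at 72 h (4.16 to 4.90) and 3.11-fold lower at 120 h than at 96 h (2.65 to 3.67). In the second step 23 of the 9056 genes had a lower log2 ratio with 1 CPM added.

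Markers of heart and muscle, and of ring gland and neurons, were lower at 96 h than at 72 h, as were prc, Mp and trol. All 10 dorsal vessel and muscle markers were at least 2-fold lower at 96 h than at 72 h, where 19.5% of all tested genes were. Their median log2 ratio was -3.33, and they ran from 2.45-fold lower for Hand to 18.7-fold lower for Mhc (myosin heavy chain). Of 9 heart and pericardial cell markers, 8 were counted as 2-fold lower, with a median log2 ratio of -1.45, and the other, Bteb2, was 2.63-fold lower by scaled counts (1.76 to 4.01). Of 7 ring gland markers 5 were counted as 2-fold lower (median log2 ratio -1.90), as were all 5 neuron markers (-3.60). The log2 ratios of trol (-2.37) and Mp (-2.11) lay within the range of the dorsal vessel and muscle markers, and that of prc (-6.60) lay below each of them. All 3 genes lay below every heart and pericardial cell marker, of which Amnionless had the lowest ratio (-1.81). In the second step the median log2 ratios were -0.54 for dorsal vessel and muscle, 0.17 for heart and pericardial cells, -0.93 for ring gland and -0.08 for neurons, where prc had -0.999, Mp -1.49 and trol -0.12. None of the heart and muscle markers was at 0 in any library, and 1 neuron marker was at 0 at 96 h, while the summed level of the heart and pericardial list was 621, 213 and 273 CPM. The part of these tissues in the values of prc, Mp and trol was not tested. In these pooled glands, fewer cells of a type and less RNA per cell cannot be told apart.

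**Figure D4:**
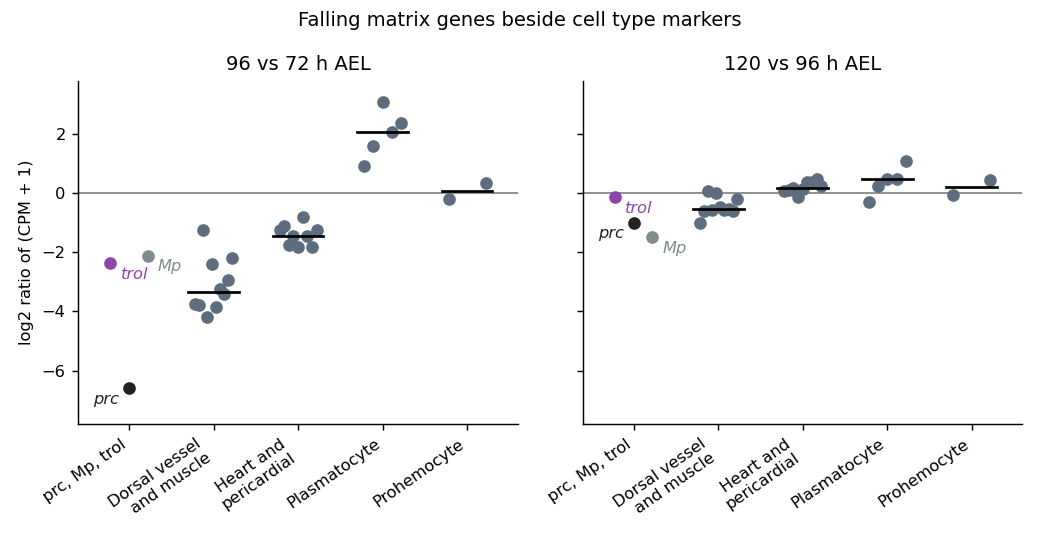
Log2 ratio of CPM + 1 for prc, Mp and trol beside 10 dorsal vessel and muscle markers, 9 heart and pericardial markers (Hand is in both lists), 5 plasmatocyte and 2 prohemocyte markers, with list medians as bars, at 96 h against 72 h (left) and 120 against 96 h (right). In the left panel prc (-6.60) lies below all markers, whose medians are -3.33 and -1.45 for dorsal vessel and heart lists and 2.07 for the plasmatocyte list.

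Markers of plasmatocytes and of crystal cells, both mature hemocytes, were higher at 96 h than at 72 h, as were vkg, Cg25C, LanB1 and Tig. The marker of lamellocytes, another mature hemocyte type, was not: atilla had 342 counts at 72 h and 140 at 96 h, 1.77-fold lower (1.45 to 2.17). Of 5 plasmatocyte markers (Hml, Pxn, NimC1, eater and crq), 4 were at least 2-fold higher at 96 h than at 72 h (background 4.76%). The median log2 ratio of the 5 was 2.07, against 0.91 for vkg, 0.67 for Tig and 0.61 for LanB1. All 3 crystal cell markers (lz, PPO1 and PPO2) were called higher (background 1.2%), with a median log2 ratio of 3.96. In the second step the plasmatocyte median was 0.47 and the crystal cell median 0.24, but Hml, the plasmatocyte marker with the most counts, had -0.30 where vkg had 0.35. The prohemocyte marker Ance was also higher at each later time, with 5575, 7043 and 9720 CPM. Tep4, the other prohemocyte marker, went the other way, with 12240, 10740 and 10240 CPM. The 7 genes listed here as markers of the fat body, the other source of collagen IV, summed to 163 CPM at 72 h, 298 CPM at 96 h and 493 CPM at 120 h. Whether this sum follows the amount of fat body was not tested. Of the 7, 2 were at 0 at 72 h, 1 at 96 h and 0 at 120 h. They did not move as 1 group, since Lsp2 had 0, 24 and 124 counts, Fbp1 10, 0 and 3479, Cyp4g1 1139, 22 and 1514, and Lsp1beta 93.9, 159 and 142 CPM. The part of these cell types in the level of vkg was not tested.

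Mmp1, which encodes a secreted protease that cuts matrix proteins, was low and was higher at each later time. The gene (FBgn0035049) lies on chromosome 2R from 24671294 to 24688184. It had 553, 704 and 1510 counts, or 10.7, 18.8 and 45.6 CPM. Mmp1 was 1.76-fold higher at 96 h than at 72 h (1.57 to 1.97) and 2.43-fold higher at 120 h than at 96 h (2.22 to 2.66). Only 71 of the 9056 genes had a larger ratio in the second step. Between 72 and 120 h it was 4.27-fold higher by scaled counts (3.87 to 4.71), but its log2 ratio of CPM + 1 was just under the threshold of 2 (1.995), so that it was not called.

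The second fly metalloproteinase gene and the gene of their shared inhibitor were read beside it. Mmp2, whose product stays at the cell surface, had 13.5, 28.9 and 48.8 CPM, 3.61-fold higher at 120 h than at 72 h (3.30 to 3.95). Timp, the inhibitor, had 6.39, 3.20 and 2.81 CPM, 2.28-fold lower (1.80 to 2.90). Both protease genes were thus higher at each later time. The inhibitor gene was lower at 96 and 120 h than at 72 h. Between 96 and 120 h it was 1.14-fold lower, with an interval that spans no change (0.862 to 1.51). These values rest on 93 to 1618 counts per library, and none of the 3 genes was called.

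Apart from Mmp1, counting by gene could have mixed few reads of the matrix genes with those of others. No exon base of vkg, LanA, LanB1, LanB2 or Ppn is shared with another annotated gene. Mmp1 shares 284 exon bases (5.87%) with Pof on the opposite strand, which had 1199, 915 and 930 counts. Since no use of strand is stated, reads of Mmp1 and Pof in that stretch cannot be told apart. For trol, Tig, prc and Mp, the shared part was 0.11% to 2.24% of exon bases and the partner genes had 28 counts or fewer in any library.

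Of 19 other genes of the matrix, 18 passed the filter. The 19 together had 5834, 11498 and 15635 CPM at 72, 96 and 120 h, most of it from Cg25C (3662, 6910 and 9279 CPM) and Glt. On the scale of CPM + 1, 2 of the 18 were counted as 2-fold higher (background 4.76%) and 5 as 2-fold lower (19.5%) at 96 h against 72 h. The median log2 ratio of the 18 was -0.68 in that step, and none passed 2-fold in either direction at 120 h against 96 h. On that scale loh and CG13830 (now Cow) were past 4-fold lower in the first step and Glt was past 4-fold higher at 120 h against 72 h. By scaled counts Tsp, a thrombospondin gene, was also 6.07-fold lower in the first step (4.03 to 9.51) and the netrin gene NetA 4.17-fold lower (3.44 to 5.09). The product of loh holds pericardin at the heart, and loh had 2095, 312 and 164 counts, 4.86-fold lower at 96 h than at 72 h (4.32 to 5.49). Cow, a secreted proteoglycan gene, had 670, 6 and 6 counts. Glt encodes glutactin, a basement membrane glycoprotein, and had 991, 3285 and 4660 CPM, 4.70-fold higher at 120 h than at 72 h (4.66 to 4.75).

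Of the same list, SPARC (in the tables BM-40-SPARC), whose product binds collagen IV, had 709, 893 and 1123 CPM. The gene fat-spondin had 75.5, 147 and 281 CPM. Like vkg, both were higher at each later time. Ndg, which encodes nidogen, a linker of laminin and collagen IV, was low, with 142, 33 and 32 counts, and was 3.12-fold lower at 96 h than at 72 h by scaled counts (2.12 to 4.70), though not among the 5 counted.

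Of 11 genes listed for collagen processing and secretion, 1 was counted as 2-fold higher (background 4.76%) at 96 h against 72 h. In that step 3 were counted as 2-fold lower (19.5%), and none passed 2-fold in the second step. Pxn, whose product crosslinks collagen IV and which is also one of the plasmatocyte markers, had 1937, 5860 and 6878 CPM. Plod, a lysyl hydroxylase gene that acts on collagen, had 554, 932 and 859 CPM, and PH4alphaEFB, a prolyl hydroxylase gene, 102, 111 and 118 CPM. The 3 counted as lower were the prolyl hydroxylase relatives PH4alphaMP, PH4alphaSG1 and PH4alphaSG2, with 1054, 490 and 462 counts at 72 h and at most 14 at 96 h. A further relative, PH4alphaPV, had 57 counts at 72 h and 2 at 96 h, and its log2 ratio of CPM + 1 (-0.996) was just short of 2-fold.

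Of 10 matrix receptor genes, 2 were counted as 2-fold higher (background 4.76%) and 2 as 2-fold lower (19.5%, which is near the same share) at 96 h against 72 h. The integrin beta chain gene mys had 214, 365 and 465 CPM, in the order of vkg. The integrin alpha chain gene if, whose product binds tiggrin, had 2221, 394 and 212 counts, 4.08-fold lower at 96 h than at 72 h (3.67 to 4.56), and so ran against Tig. ItgalphaPS4 had 0, 227 and 368 counts. With its 72 h count set to the floor of 3, it was 104-fold higher at 96 h than at 72 h (35.3 to 510).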

How the data were processed

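For each library the authors deposited a table of gene counts, whole and not normalized. Per the labels, their processing notes name STAR 2.5.3a, featureCounts 1.6.0, FastQC 0.11.8 and the build BDGP6. Settings for strand and for reads shared between genes are not given in the sources used here. Libraries were grouped by the labelled hours AEL. TMM factors were computed on the 9056 genes that reached 1 CPM in any library (edgeR 4.0.16 in R 4.3.3), and size factors with DESeq2 1.42.0 as an alternative. Folds were taken from scaled counts, with exact (Clopper-Pearson) 95% intervals, and a count at or under 3 was set to 3. Exon lengths and positions came from the Ensembl release 115 annotation (BDGP6.54), to which 17216 genes matched by identifier and 123, trol among them, by symbol; TPM were taken over the genes with a length. The remainder ran in Python 3.11.15 (pandas 2.3.3, SciPy 1.17.1, NumPy 2.4.6), with plots by Matplotlib 3.10.9. The functions were checked on simulated data. With 1 library per time point no test across samples was possible. All 10 genes are named. From the list of other matrix genes, those called in any comparison or above 100 CPM are named, and the rest were chosen after their values were seen. Members and lists were chosen with earlier results of these data known. Alternatives were other scalings, pseudocounts, filters, thresholds, depths and lengths. No sequences are shown.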

Additional observations from a re-analysis of the deposited data

How the results depend on the processing

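Each time point had 1 library, so nothing below measures the spread between larvae or preparations, and the higher heart and muscle markers of the 72 h library cannot be told apart from age. No paired analysis was possible because each group had 1 library. The 3 genes called lower at 96 and at 120 h against 72 h numbered 3 or 2 in every setting tried: with a pseudocount of 5 CPM, Mp had a log2 ratio of -1.91 at 96 h against 72 h and was not past 4-fold. For 120 h against 96 h, a pseudocount of 0.1 CPM gave 1 lower gene (prc), and 2-fold gave 1 higher and 1 lower. For 120 h against 72 h, a pseudocount of 0.1 CPM gave 1 higher gene (Mmp1) and 2-fold gave 2. The log2 ratio of prc at 96 h against 72 h was -7.28 with a pseudocount of 0.1 CPM and -5.19 with 5 CPM, since its later counts were few. The median of the 10 genes was 0.029, -0.039 and -0.009 at 96 h against 72 h, 120 h against 96 h and 120 h against 72 h with total-count scaling, and 0.081 and 0.079 at 96 and at 120 h against 72 h with DESeq2 size factors. It thus lay near 0 throughout, and its sign at 120 h against 72 h depended on the scaling. Total-count scaling moved the median of all tested genes at 120 h against 72 h from -0.04 to -0.15. Of 150 ratios of single genes under other settings, 148 kept their sign, and the exceptions were LanB1 (-0.008) and LanB2 (-0.018) at 120 h against 96 h with total-count scaling. Without mitochondrial and rRNA genes in the total, the 10 genes took 2.44%, 2.46% and 2.22% of counts at 72, 96 and 120 h, so that the order of the first 2 libraries turned. The summed TPM was 4449, 5109 and 4872 with the union of exons and 4362, 4954 and 4721 with the longest transcript. The cause of these differences was not tested beyond the construction of each setting.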
